A study of Mus musculus with 4 samples.

Results

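The 36 genes described here encode aminoacyl-tRNA synthetases, the enzymes that join each amino acid to its transfer RNA. They were taken by symbol from a table of 22138 genes, 20 as cytosolic synthetases and 16 as mitochondrial ones (symbols ending in 2), and all 36 symbols were found. Libraries were made from TT2 cells, female embryonic stem cells of the mouse cross C57BL/6xCBA, kept without feeder cells in serum and LIF. Control siRNA (n = 2) or siRNA against Hnrnpk (n = 2) was transfected at 100 nM and again at 50 nM after 24 hours, with harvest about 72 hours after the second round. The product of Hnrnpk, hnRNP K, binds RNA and DNA, and the series title connects it to silencing by the histone methyltransferase SETDB1. All 4 libraries share the same cell line and culture, no library from untransfected cells was analysed here, and the sources used here do not give the siRNA sequences. Whether the replicates are separate cultures of the line is stated only as biological replicates in the design text. The p-values set the group difference against the spread within groups, estimated in part from other genes, and cover only these 4 libraries.

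A synthetase activates its amino acid with ATP and transfers it to the matching tRNA, and several proofread the product. Cytosol and mitochondria translate separately, so most amino acids have 1 nuclear gene for the cytosolic enzyme and another for an imported mitochondrial enzyme. Gars and Kars are known to supply both compartments from 1 gene, and Eprs encodes a fused enzyme for glutamate and proline. In the cytosol, 8 of the enzymes listed (Dars, Eprs, Iars, Kars, Lars, Mars, Qars and Rars) assemble with the scaffold proteins Aimp1, Aimp2 and Eef1e1 into the multisynthetase complex. Many cytosolic synthetase genes are known targets of ATF4, the transcription factor of the amino acid and integrated stress response.

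Promoter sequences are shown for the 4 members whose start region held the composite element bound by ATF4 with C/EBP factors, and for Sars2, the member with the largest change. They are from RefSeq on GRCm38.p6, 250 bases before to 50 after the start site, 5′ to 3′ on the gene's strand, and capitals mark matches to 3 motifs on either strand: TGATGCAA (ATF4 with C/EBP), CACGTG (the E-box bound by MYC and related factors) and CCGGAAG (ETS factors).
Aars (chr8:111033592-111033891, plus strand): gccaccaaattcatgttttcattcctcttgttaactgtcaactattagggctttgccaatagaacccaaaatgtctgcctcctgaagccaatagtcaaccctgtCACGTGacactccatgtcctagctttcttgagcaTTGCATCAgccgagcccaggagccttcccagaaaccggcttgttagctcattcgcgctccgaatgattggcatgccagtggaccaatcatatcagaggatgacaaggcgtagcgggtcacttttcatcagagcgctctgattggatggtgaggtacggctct
Iars (chr13:49681880-49682179, plus strand): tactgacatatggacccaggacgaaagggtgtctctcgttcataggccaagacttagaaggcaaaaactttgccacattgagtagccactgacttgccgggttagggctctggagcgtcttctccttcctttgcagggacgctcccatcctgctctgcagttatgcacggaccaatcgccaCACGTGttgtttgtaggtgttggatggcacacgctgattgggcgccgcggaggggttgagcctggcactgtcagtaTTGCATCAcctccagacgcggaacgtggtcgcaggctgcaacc
Tars (chr15:11399609-11399908, minus strand): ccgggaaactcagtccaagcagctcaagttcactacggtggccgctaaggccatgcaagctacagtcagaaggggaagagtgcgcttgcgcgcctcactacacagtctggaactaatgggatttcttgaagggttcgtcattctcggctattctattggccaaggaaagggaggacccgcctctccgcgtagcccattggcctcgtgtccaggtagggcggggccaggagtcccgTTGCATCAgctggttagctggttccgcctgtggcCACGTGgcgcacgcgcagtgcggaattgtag
Yars (chr4:129189653-129189952, plus strand): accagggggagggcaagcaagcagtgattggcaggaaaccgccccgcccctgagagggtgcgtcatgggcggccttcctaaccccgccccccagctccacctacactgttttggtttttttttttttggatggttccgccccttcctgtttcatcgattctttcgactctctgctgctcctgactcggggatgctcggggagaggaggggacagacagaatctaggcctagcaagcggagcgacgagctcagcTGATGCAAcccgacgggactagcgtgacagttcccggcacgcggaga
Sars2 (chr7:28741718-28742017, plus strand): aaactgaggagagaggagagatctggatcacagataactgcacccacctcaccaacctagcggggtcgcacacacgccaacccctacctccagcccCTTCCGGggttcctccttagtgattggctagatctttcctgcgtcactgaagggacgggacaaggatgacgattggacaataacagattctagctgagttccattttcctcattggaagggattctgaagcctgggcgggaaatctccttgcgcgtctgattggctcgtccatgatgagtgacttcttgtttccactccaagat

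Promoters of 26 members were matched by symbol, 12 cytosolic and 14 mitochondrial. Cars, Hars, Hars2, Lars, Mars, Nars, Pars2, Rars, Vars and Wars had no entry. The ATF4 element was found in 4 of the 12 cytosolic and 0 of the 14 mitochondrial genes. Its matches did not overlap those of the other motifs. Among 32851 promoter windows of 300 bases in the same table, 0.895% held it. In Aars, Iars, Tars and Yars the match began at -112, 7, -15 and 3 bases from the start site. The E-box was found in Aars, Iars, Tars and Farsb among the cytosolic genes and in Ears2 among the mitochondrial ones, against 7.15% of all windows. The ETS motif was found in Farsa, Gars, Kars and Sars and in Cars2, Mars2, Rars2 and Sars2, against 8.86% of all windows. These matches describe letters in a window and carry no test.

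The measurements were RPKM, reads scaled to transcript length and to the mapped reads of the library, a scale on which levels of different genes can be compared. Over all genes, RPKM summed to 359659 and 362836 in controls and to 377825 and 390467 after Hnrnpk siRNA. Sums over lists of genes given below were not scaled to these totals. Relative depth was read from the steps between low values, with control replicate 1 set to 1. It was 0.982 in control replicate 2, and 0.891 and 0.882 in Hnrnpk siRNA replicates 1 and 2. Hnrnpk itself read 236 and 226 RPKM after control siRNA against 68.0 and 70.5 RPKM after Hnrnpk siRNA (log2 change -1.73, limma adjusted p = 6.59e-08). Of its transcript, 46.4% is shared with the processed pseudogene Gm7964, whose listed values fell too. Summed RPKM of 10 embryonic stem cell markers was 4094 and 3935 in controls against 4699 and 5022 after Hnrnpk siRNA, and Dppa5a was the largest part of the sum (1298 RPKM on average in controls, 2308 RPKM after Hnrnpk siRNA). By gene, 2 of the 10 were called higher (Dppa5a and Nanog, log2 changes 0.83 and 0.82) and 4 lower (Sox2 -0.53, Fgf4 -0.30, Utf1 -0.29, Tdgf1 -0.24), with a median of -0.15. Pou5f1 was not called (-0.15), and it had at least 245 RPKM in each library. Summed markers of primitive endoderm lay between 5.22 and 5.29 RPKM in controls and between 30.6 and 31.3 RPKM after Hnrnpk siRNA. Those of trophectoderm lay between 29 and 35 RPKM in controls and between 63.4 and 68.3 RPKM after Hnrnpk siRNA. Krt18 and Krt8 were the largest parts of the trophectoderm sum. Their means were 17.4 and 12.3 RPKM in controls, and 32 and 22.4 RPKM after Hnrnpk siRNA. Cdx2 had means of 0.234 RPKM in controls and 0.74 RPKM after Hnrnpk siRNA. Of the primitive endoderm list 5 of 8 genes were tested and of the trophectoderm list 4 of the 7 found, and every tested one was called higher. Over all genes tested, 32.2% were called higher and 35.0% lower. The filter used the mean of all 4 libraries, so a marker under 0.5 RPKM in controls passed only if above it after Hnrnpk siRNA. Pdgfra, with means of 0.17 and 0.898 RPKM, passed only through the Hnrnpk siRNA libraries. Of the untested genes, Sox17, Foxa2, Cdx2 and Krt7 had higher means after Hnrnpk siRNA, and Afp and Elf5 lower ones. The 8 fibroblast markers summed to 10.4 and 8.79 RPKM in controls and to 5.05 and 5.31 RPKM after Hnrnpk siRNA. Of the 3 tested, Thy1 (-1.24) and Col1a1 (-0.42) fell and Pdgfrb was not called (0.14). Whether cells of these other types were present was not tested, nor was their part in the synthetase values. In bulk RNA fewer cells of a type cannot be told apart from less RNA per cell.

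In the control libraries the cytosolic genes were expressed well above the mitochondrial genes. Cytosolic control means ran from 36.8 RPKM for Yars to 407 RPKM for Kars, with a median of 133 RPKM. Mitochondrial control means ran from 1.59 RPKM for Wars2, the tryptophan enzyme, to 227 RPKM for Lars2, the leucine enzyme, with a median of 14.7 RPKM. Lars2 was apart from its group, since the next mitochondrial gene, Sars2, had 31.5 RPKM. No annotated transcript of another gene shared 100 bases or more with the Lars2 transcript at 95% identity, and ribosomal RNA repeats outside the annotation were not compared. Among the 12486 genes tested, mean levels placed Kars at the 99.2 percentile, Yars at 78.0, Sars2 at 69.8 and Wars2 at 18.5. The filter on low values (a 4-library mean of 0.5 RPKM) removed no member: all 36 were tested.

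**Figure D1:**
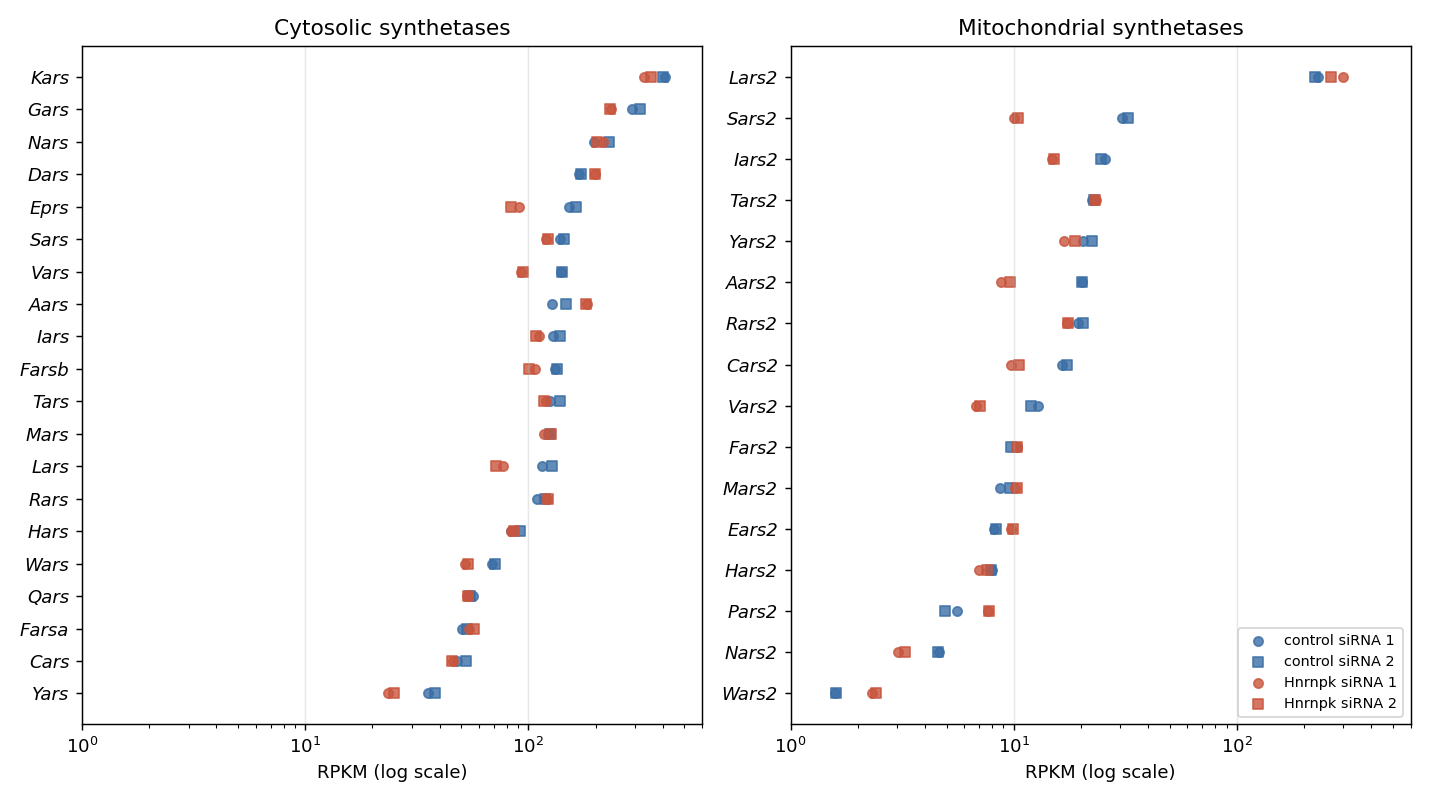
RPKM of each synthetase gene in each library on a log axis, cytosolic genes on the left and mitochondrial genes on the right, ordered by the control mean. Circles and squares are replicates 1 and 2, blue after control siRNA and red after Hnrnpk siRNA. Cytosolic genes lie mostly near or above 50 RPKM, mitochondrial genes other than Lars2 below 33 RPKM.

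After Hnrnpk siRNA 24 of the 36 synthetase genes changed at an adjusted p under 0.05, 18 of them lower and 6 higher. Genes were tested as log2(RPKM + 0.5) with limma and adjusted by Benjamini-Hochberg over all 12486 genes, a scale that compresses the changes of weakly expressed genes. Calls were as common in the table as a whole, with 67.2% of all genes called, 32.2% higher and 35.0% lower. The share of synthetase genes called, 66.7%, was near that background, with 60% of the cytosolic and 75% of the mitochondrial genes called. Both Hnrnpk siRNA libraries lay below both controls in 22 members and above them in 10, against 84.7% of all genes without overlap in either direction, and the groups overlapped for Hars, Mars, Nars and Fars2. The median log2 change was -0.17 over the members, -0.19 over the cytosolic and -0.15 over the mitochondrial genes, against -0.015 over all genes tested. The spread was wider in the mitochondrial group, from -1.57 to 0.51, than in the cytosolic group, from -0.85 to 0.41. The median size of the change, regardless of direction, was 0.38 in the mitochondrial and 0.24 in the cytosolic group, against 0.32 over all genes. The difference between the groups was not tested.

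**Figure D2:**
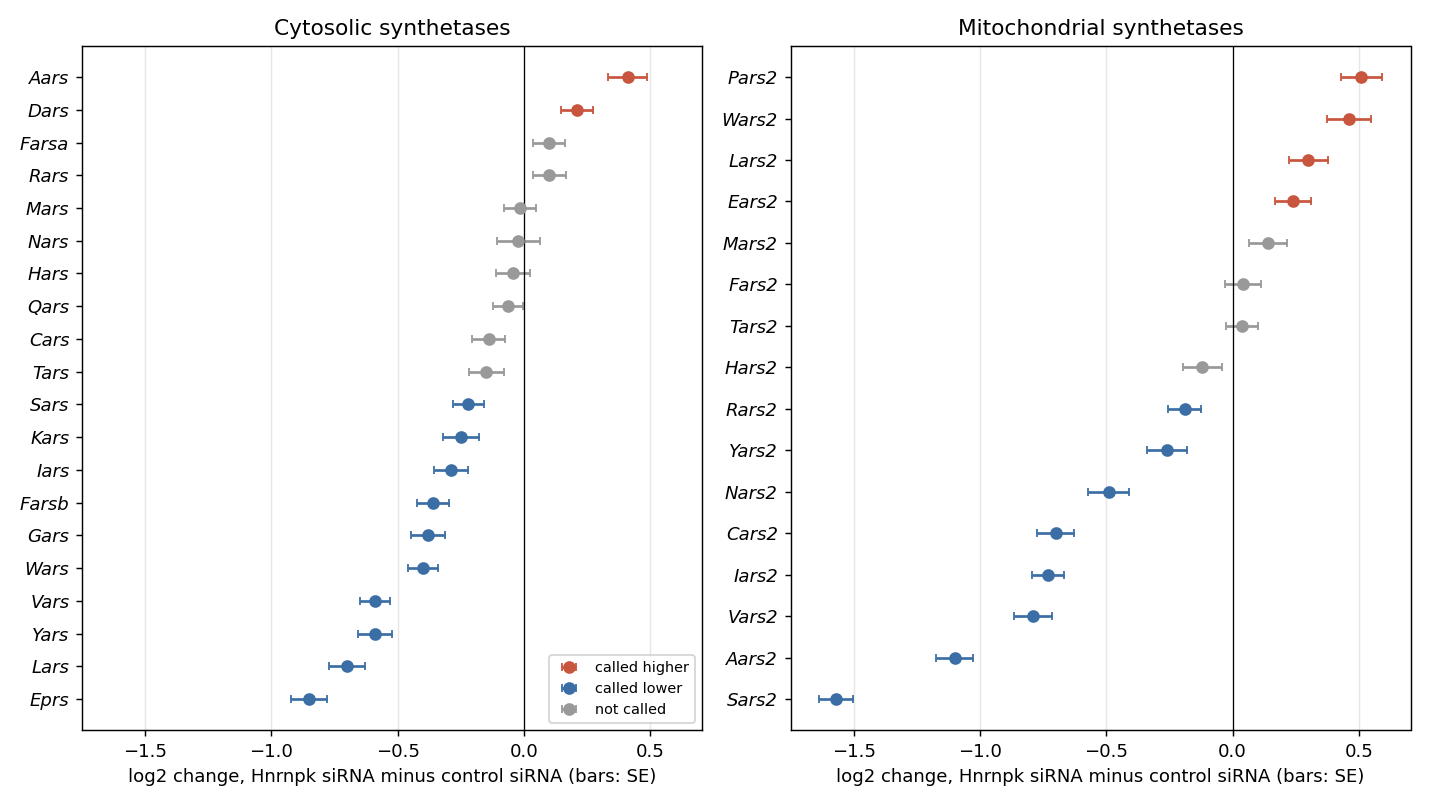
Log2 change of each synthetase gene (Hnrnpk siRNA minus control siRNA, bars are the SE from limma), cytosolic on the left and mitochondrial on the right, red for called higher, blue for called lower and grey for not called. Cytosolic changes run from -0.85 (Eprs) to 0.41 (Aars) and mitochondrial changes from -1.57 (Sars2) to 0.51 (Pars2).

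Among the cytosolic enzymes 10 genes fell and 2 rose. The largest fall was of Eprs (ENSMUSG00000026615, chromosome 1, 185363044 to 185428360 of GRCm38, plus strand), which carries the glutamate and proline activities of the multisynthetase complex. Eprs read 152 and 163 RPKM in controls against 91.1 and 83.8 RPKM after Hnrnpk siRNA. Both Hnrnpk siRNA libraries lay far below both controls, and the means were 158 ± 8.29 and 87.5 ± 5.15 RPKM (SD, n = 2 each) (log2 change -0.85 with SE 0.0704, limma adjusted p = 6.53e-06).

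Lars (ENSMUSG00000024493, chromosome 18, 42202298 to 42262194, minus strand), the leucine enzyme of the same complex, known also as a leucine sensor for mTORC1, read 115 and 128 RPKM in controls and 76.6 and 71.8 RPKM after Hnrnpk siRNA. The groups did not overlap, and the log2 change was -0.70 (standard error 0.0723, limma adjusted p = 2.32e-05). Of the other complex members, Iars fell from 134 ± 7.36 to 109.8 ± 2.70 RPKM (SD, n = 2 each; difference of -0.29 on the log2 scale, limma adjusted p = 0.00354). Of the Iars transcript 49.9% is shared, at up to 96.8% identity, with the processed pseudogene Gm4849 on chromosome 1, which was not analysed here, so the Iars values are uncertain to the extent that reads were placed on the copy. Kars, the most abundant member, stood at 411 and 403 RPKM in controls and at 329 and 355 RPKM after Hnrnpk siRNA. Its log2 change of -0.25 was called (limma adjusted p = 0.0102), but without Hnrnpk siRNA replicate 1 it was -0.20 and not called (adjusted p = 0.0599, the alternatives running from 2.15e-04 to 0.0599). Under quantile normalization it was -0.39.

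Dars, the aspartate enzyme, went the other way within the complex. Its values were 168 and 173 RPKM in controls and 198 and 199 RPKM after Hnrnpk siRNA (log2 change 0.21 with SE 0.0623, limma adjusted p = 0.0123). That call did not hold without control replicate 1 (0.19, adjusted p = 0.0658), under quantile normalization (0.081, adjusted p = 0.225) or with GC trends removed (0.11, adjusted p = 0.147), the alternatives running from 0.00487 to 0.225. Qars, Mars and Rars, for glutamine, methionine and arginine, were not called, with log2 changes of -0.064, -0.016 and 0.10. Over the 8 complex members, 62.5% of which were called against 67.2% of all genes, 4 fell and 1 rose, with a median of -0.16. Their summed RPKM was 1263 and 1306 in controls and 1098 and 1120 after Hnrnpk siRNA.

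Of the 12 cytosolic genes outside the complex, 6 fell and 1 rose, with a median log2 change of -0.19. Calls covered 58.3% of them, against 67.2% of all genes. Vars (ENSMUSG00000007029, chromosome 17, 35000987 to 35016322, plus strand), the valine enzyme, known to associate with elongation factor 1, was at 139.5 and 142 RPKM in controls and at 93.0 and 94.6 RPKM after Hnrnpk siRNA. Its log2 change was -0.59 (standard error 0.0606, limma adjusted p = 2.43e-05), and it was -0.39 with GC trends removed. Yars (ENSMUSG00000028811, chromosome 4, 129189760 to 129219607, plus strand), the tyrosine enzyme, was the least abundant cytosolic member, at 35.5 and 38.1 RPKM in controls and 23.6 and 25.1 RPKM after Hnrnpk siRNA. It also had a log2 change of -0.59 (standard error 0.0677, limma adjusted p = 4.88e-05), with no overlap of the groups.

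Wars (ENSMUSG00000021266, chromosome 12, 108860030 to 108894174, minus strand), the tryptophan enzyme, known for induction by interferon gamma, had 68.7 and 71.2 RPKM in controls and 52.1 and 53.8 RPKM after Hnrnpk siRNA (log2 change -0.40, SE 0.0612, limma adjusted p = 3.10e-04). Gars, for glycine, fell from 304 ± 16.8 to 233 ± 0.509 RPKM (SD, n = 2 each; difference of -0.38 on the log2 scale). Sars, for serine, fell from 141 ± 3.93 to 121 ± 1.79 RPKM (SD, n = 2 each), a log2 change of -0.22 (limma adjusted p = 0.0109). Without control replicate 2 the Sars change was -0.19 and not called (adjusted p = 0.0581, the alternatives running from 6.16e-04 to 0.0581).

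Aars (ENSMUSG00000031960, chromosome 8, 111033144 to 111057664, plus strand), the alanine enzyme, was the clearest rise among the cytosolic genes. It was at 128 and 148 RPKM in controls and at 183 and 182 RPKM after Hnrnpk siRNA. The control libraries differed more from each other than the Hnrnpk siRNA libraries did, but neither reached them, and the log2 change was 0.41 (standard error 0.0764, limma adjusted p = 0.00107). The annotated gene Exosc6 lies within the longest Aars transcript on the same strand over 23.1% of its length, and the sources used here do not say how such reads were assigned.

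Phenylalanine is attached in the cytosol by an enzyme of alpha subunits from Farsa and beta subunits from Farsb, and only the beta subunit gene was called. Farsb was at 132 and 135 RPKM in controls and at 107 and 100.3 RPKM after Hnrnpk siRNA (log2 change -0.36, SE 0.0643, limma adjusted p = 7.85e-04). Farsa had 50.6 and 53.3 RPKM in controls and 54.4 and 57.3 RPKM after Hnrnpk siRNA and was not called (log2 change 0.10, limma adjusted p = 0.178). With GC trends removed Farsa was called higher (0.21, adjusted p = 0.0181, the alternatives running from 0.0181 to 0.573). The log2 ratio of Farsa to Farsb was -1.38 and -1.34 in controls and -0.98 and -0.81 after Hnrnpk siRNA, so both Hnrnpk siRNA libraries had the higher ratio. The difference in this ratio was not tested.

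Cars, Hars, Nars and Tars, for cysteine, histidine, asparagine and threonine, were the other cytosolic genes without a call, with log2 changes of -0.14, -0.043, -0.022 and -0.15. Tars had both Hnrnpk siRNA libraries (119.6 and 118 RPKM) below both controls (125 and 139 RPKM) but missed the threshold (limma adjusted p = 0.0778). It passed without control replicate 1 (-0.23, adjusted p = 0.0285), under quantile normalization (-0.25, adjusted p = 0.00677) and with GC trends removed (-0.19, adjusted p = 0.0392), the alternatives running from 0.00677 to 0.428. Cars passed without control replicate 1 (-0.20, adjusted p = 0.0371) and under quantile normalization (-0.19, adjusted p = 0.0245), the alternatives running from 0.0245 to 0.401. The summed RPKM of the 20 cytosolic genes was 2700 and 2867 in controls and 2429 and 2443 after Hnrnpk siRNA, a ratio of 0.875.

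The control libraries were not alike in these genes. In 18 of the 20 cytosolic genes control replicate 2 was above control replicate 1, against 5330 of the 12486 genes tested and 8 of the 16 mitochondrial genes. The median log2 ratio of control replicate 2 to 1 was 0.10 over the cytosolic genes. The genes of ATF4 and its targets moved with it: 20 of 23 tested were higher in control replicate 2, with a median log2 ratio of 0.32. Atf4 had 188 and 306 RPKM in the controls. The part of this difference in the synthetase calls was not tested beyond the values without each control library.

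The mitochondrial enzymes held the largest changes, with 8 genes lower and 4 higher. Only Sars2 and Aars2 among the 36 members were called with at least a 2-fold change, both lower, where 8.51% of all genes were called at that size and 4.52% were lower. Sars2 (ENSMUSG00000070699, chromosome 7, 28741992 to 28753871, plus strand), the mitochondrial serine enzyme, was at 30.6 and 32.4 RPKM in controls and at 10 and 10.5 RPKM after Hnrnpk siRNA. It fell to 0.326 of its control mean (log2 change -1.57 with SE 0.0677, limma adjusted p = 1.50e-07), and with GC trends removed the change was -1.40. The Sars2 promoter printed above faces the gene Mrps12, whose start lies 172 bases away on the other strand and which was not analysed here.

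Aars2 (ENSMUSG00000023938, chromosome 17, 45506841 to 45520843, plus strand), the mitochondrial alanine enzyme, had 20.3 and 20.2 RPKM in controls and 8.77 and 9.65 RPKM after Hnrnpk siRNA. The control values were almost equal and more than 2 times those after Hnrnpk siRNA, with a log2 change of -1.10 (standard error 0.0723, limma adjusted p = 1.64e-06). It was -0.92 with GC trends removed. Vars2 (ENSMUSG00000038838, chromosome 17, 35655634 to 35667592, minus strand), for valine, was at 12.8 and 12.0 RPKM in controls and at 6.79 and 7.10 RPKM after Hnrnpk siRNA (log2 change -0.79, SE 0.0742, limma adjusted p = 1.34e-05).

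Iars2 (ENSMUSG00000026618, chromosome 1, 185284726 to 185329396, minus strand), for isoleucine, had 25.6 and 24.7 RPKM in controls and 14.8 and 15.2 RPKM after Hnrnpk siRNA (log2 change -0.73 with SE 0.0648, limma adjusted p = 9.63e-06). Of its longest transcript 37.2% overlaps Rab3gap2 on the other strand, and Rab3gap2 fell by nearly the same amount (log2 change -0.77, limma adjusted p = 8.95e-06). The sources used here do not say whether the counting used strand, so reads from the shared stretch cannot be told apart. Cars2 (ENSMUSG00000056228, chromosome 8, 11513977 to 11550783, minus strand), for cysteine, was at 16.4 and 17.4 RPKM in controls and at 9.76 and 10.6 RPKM after Hnrnpk siRNA (log2 change -0.70, SE 0.0740, limma adjusted p = 2.69e-05). Cars2 shares 22.3% of its transcript with a gene on the other strand, listed as Carkd, which was not called (log2 change -0.081, limma adjusted p = 0.362). Smaller stretches also overlap genes on the other strand in Farsb (12.3% of the transcript), Hars (9.8%), Nars2 (7.52%), Hars2 (5.85%), Fars2 (5.41%) and Vars2 (5.18%), with Hars and Hars2 overlapping each other.

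Nars2, for asparagine, fell from 4.60 ± 0.0204 to 3.14 ± 0.149 RPKM (SD, n = 2 each; difference of -0.49 on the log2 scale, limma adjusted p = 5.52e-04). Yars2 and Rars2, for tyrosine and arginine, had smaller falls with log2 changes of -0.26 and -0.19, and these depended on single libraries. Yars2 was not called without control replicate 2 (-0.19, adjusted p = 0.0594) or without Hnrnpk siRNA replicate 1 (-0.18, adjusted p = 0.140), nor when low genes were kept in the test (-0.26, adjusted p = 0.0518). Its alternatives ran from 0.00227 to 0.140. Rars2 was not called without control replicate 2 (-0.15, adjusted p = 0.108), without Hnrnpk siRNA replicate 1 (-0.18, adjusted p = 0.130) or without Hnrnpk siRNA replicate 2 (-0.20, adjusted p = 0.0993), its alternatives running from 0.00565 to 0.130.

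Pars2, Wars2, Lars2 and Ears2 rose. Pars2 (ENSMUSG00000043572, chromosome 4, 106651069 to 106655282, plus strand), the mitochondrial proline enzyme, was at 5.58 and 4.94 RPKM in controls and at 7.66 and 7.73 RPKM after Hnrnpk siRNA (log2 change 0.51 with SE 0.0827, limma adjusted p = 4.28e-04). Wars2, the least abundant member, rose from 1.59 ± 0.00938 to 2.37 ± 0.0733 RPKM (SD, n = 2 each; difference of 0.46 on the log2 scale, limma adjusted p = 0.00119). Lars2 was at 232 and 223 RPKM in controls and at 299 and 263 RPKM after Hnrnpk siRNA (log2 change 0.30, limma adjusted p = 0.00653), so its Hnrnpk siRNA libraries differed from each other more than its controls did. The Lars2 rise also rests on its listed values, since ribosomal RNA repeats were not compared with its transcript. Ears2, for glutamate, rose from 8.25 ± 0.0676 to 9.81 ± 0.158 RPKM (SD, n = 2 each), a log2 change of 0.24 (limma adjusted p = 0.0137). It was not called without Hnrnpk siRNA replicate 1 (0.25, adjusted p = 0.0706) or replicate 2 (0.22, adjusted p = 0.111), the alternatives running from 0.00118 to 0.111. With GC trends removed it was 0.37.

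Fars2, Hars2, Mars2 and Tars2 were not called, with log2 changes of 0.040, -0.12, 0.14 and 0.038. Mars2 was called higher without control replicate 2 (0.21, adjusted p = 0.0308, the alternatives running from 0.0308 to 0.897). Summed over all 16 mitochondrial genes, RPKM was 447 and 442 in controls and 457 and 427 after Hnrnpk siRNA. Lars2 made up much of that sum. Without it, the other 15 genes summed to 215 and 219 RPKM in controls and to 158 and 164 RPKM after Hnrnpk siRNA, a ratio of 0.741.

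Enzymes for the same amino acid in the 2 compartments were then set side by side. Of 13 amino acids with a single cytosolic gene and its mitochondrial partner among the members, 4 had both genes called lower (isoleucine, serine, valine and tyrosine). In 3 the calls were opposite: alanine, leucine and tryptophan. In a further 3 (cysteine, asparagine and arginine) the mitochondrial gene alone was called, and in 3 (histidine, methionine and threonine) neither was. Eprs, called lower, also stood against Ears2 and Pars2, which were called higher.

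For alanine, the log2 ratio of Aars to Aars2 was 2.66 and 2.87 in controls and 4.39 and 4.24 after Hnrnpk siRNA, and the ratio of mean RPKM went from 6.81 to 19.8. For serine, Sars stood at 4.47 times Sars2 in controls and at 11.8 times after Hnrnpk siRNA. The reverse was seen for tryptophan, where Wars stood at 44.0 times Wars2 in controls and at 22.4 times after Hnrnpk siRNA. For leucine the mitochondrial gene had the higher RPKM, with Lars at 0.534 of Lars2 in controls and 0.264 after Hnrnpk siRNA. Ribosomal RNA repeats were not compared with the Lars2 transcript, so this order and ratio rest on its listed values. In each of these 4 pairs the Hnrnpk siRNA libraries lay outside the control range of the log2 ratio. Among the 13 pairs only Hars with Hars2 did not show this, so it is not particular to these 4. Mars with Mars2, neither called, had log2 ratios of 3.81 and 3.70 in controls and 3.55 and 3.63 after Hnrnpk siRNA. None of the ratios was tested.

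**Figure D3:**
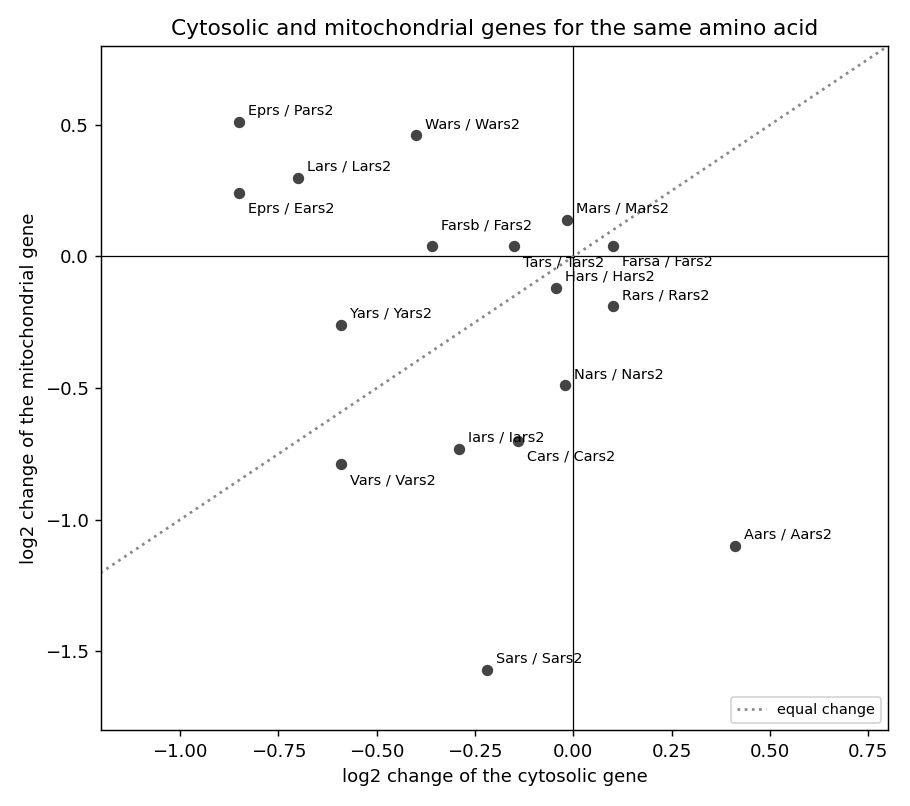
Log2 change of the cytosolic gene (horizontal) and of the mitochondrial gene (vertical) for the same amino acid, 1 point per pair, with Farsa and Farsb each set against Fars2 and Eprs against Ears2 and Pars2. The dotted line marks equal change. Aars and Aars2 lie at 0.41 and -1.10, and Wars and Wars2 at -0.40 and 0.46, in opposite corners.

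The synthetases fall into 2 structural classes with unrelated catalytic folds. In the cytosol 5 of 9 class I genes fell, with a median log2 change of -0.29, and of 10 class II genes 4 fell and 2 rose, with a median of -0.097; Eprs, which has both kinds of domain, was left out. In the mitochondrial group 5 of 9 class I genes fell and 3 rose (median -0.19), while 3 of 7 class II genes fell and 1 rose (median -0.12). Both genes with at least 2-fold falls, Sars2 and Aars2, are class II. Calls covered 55.6% of class I and 60% of class II genes in the cytosol, and 88.9% and 57.1% in the mitochondrial group. Over all genes tested, 67.2% were called. No difference between the classes was tested.

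Several members share a start region with a neighbour on the other strand, within 1000 bases. Kars fell (log2 change -0.25) while Terf2ip, 75 bases away, rose (0.47, limma adjusted p = 1.53e-04). Ears2 rose (0.24) and so did Ubfd1, 88 bases away (0.57, limma adjusted p = 4.77e-05). Yars fell and Rars2 fell, while their neighbours S100pbp (33 bases) and Orc3 (13 bases) had log2 changes of 0.15 and 0.030 and were not called. Hars and Hars2 themselves start 197 bases apart, and neither was called. Wars fell while Wdr25, 543 bases away, was not called (-0.033).

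The 4 genes whose printed promoters hold the ATF4 element differed in their calls: Aars rose, Iars and Yars fell, and Tars was not called. Of ATF4 and its known targets outside the synthetases, 23 of 25 were tested, with 8 called higher and 8 lower and a median log2 change of 0.029, against 67.2% called among all genes. Ddit3, which encodes the stress transcription factor CHOP, was at 4.82 and 11.2 RPKM in controls and at 60.0 and 68.1 RPKM after Hnrnpk siRNA (log2 change 3.03, limma adjusted p = 1.01e-05). Trib3, a pseudokinase that feeds back on this response, had 18.9 and 40.3 RPKM in controls and 50.0 and 55.3 RPKM after Hnrnpk siRNA (log2 change 0.92, limma adjusted p = 0.0101), and was not called when low genes were kept in the test (adjusted p = 0.0951, the alternatives running from 3.64e-09). Without control replicate 1 the Trib3 change was 0.38, and without control replicate 2 it was 1.45.

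Asns, asparagine synthetase, which makes the amino acid and does not charge tRNA, rose from 235 ± 6.65 to 301 ± 13.9 RPKM (SD, n = 2 each; difference of 0.35 on the log2 scale, limma adjusted p = 0.00128). Atf4 itself had 305 and 333 RPKM after Hnrnpk siRNA beside 188 and 306 RPKM in controls and was not called (log2 change 0.41, limma adjusted p = 0.0629). Without control replicate 2 it was called (0.76, adjusted p = 8.18e-06) and without control replicate 1 it was 0.058, the adjusted p running from 8.18e-06 to 0.619 over the alternatives. After Ddit3, the largest rises among the targets were of Ddit4 and Atf3, with log2 changes of 1.33 and 1.24. Pycr1, Phgdh and Pck2 had the largest falls in the list, with log2 changes of -1.92, -1.32 and -1.19. They encode enzymes that make proline, serine and phosphoenolpyruvate.

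The partners of the synthetases were counted in the same way. Of the 3 scaffolds of the multisynthetase complex only Eef1e1 was called, higher by 0.16, with Aimp1 at 0.11 and Aimp2 at -0.095. Mitochondria charge glutamine tRNA indirectly, through a glutamyl-tRNA amidotransferase. Its subunit Pet112l (now Gatb) fell from 5.18 ± 0.0654 to 2.41 ± 0.0242 RPKM (SD, n = 2 each; difference of -0.97 on the log2 scale), its subunit Qrsl1 rose (0.27) and Gatc was not called (-0.11). Mtfmt, which formylates the initiator methionyl-tRNA, rose by 0.27 on the log2 scale. Over all genes tested, 67.2% were called.

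Among 6 genes of proofreading and peptidyl-tRNA release, 2 fell and 1 rose. Dtd1, which removes D-amino acids from tRNA, fell from 18.4 ± 0.0724 to 7.93 ± 0.256 RPKM (SD, n = 2 each; difference of -1.17 on the log2 scale), and Aarsd1, which clears mischarged alanine tRNA, fell by 0.58 on the log2 scale. Prorsd1 rose (0.75). Of 7 genes of selenocysteine synthesis and insertion, 4 fell and 1 rose, with Sephs2 at -0.66 and Sepsecs at -0.40. Among 20 genes of tRNA maturation and export, 7 rose and 5 fell, with Rpp38 at 0.94 and Rpp40 at -0.81, both encoding subunits of ribonuclease P. Calls covered 50%, 71.4% and 60% of these lists in the order given, against 67.2% of all genes.

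Elongation factors work with charged tRNA at the ribosome, and calls were made for 1 of the 5 cytosolic ones and 3 of the 4 mitochondrial ones, against 67.2% of all genes. The cytosolic gene called was Eef1g (0.16, limma adjusted p = 0.0476). Of the mitochondrial genes Tufm rose (0.17) and Tsfm and Gfm2 fell (-0.40 and -0.55).

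**Figure D4:**
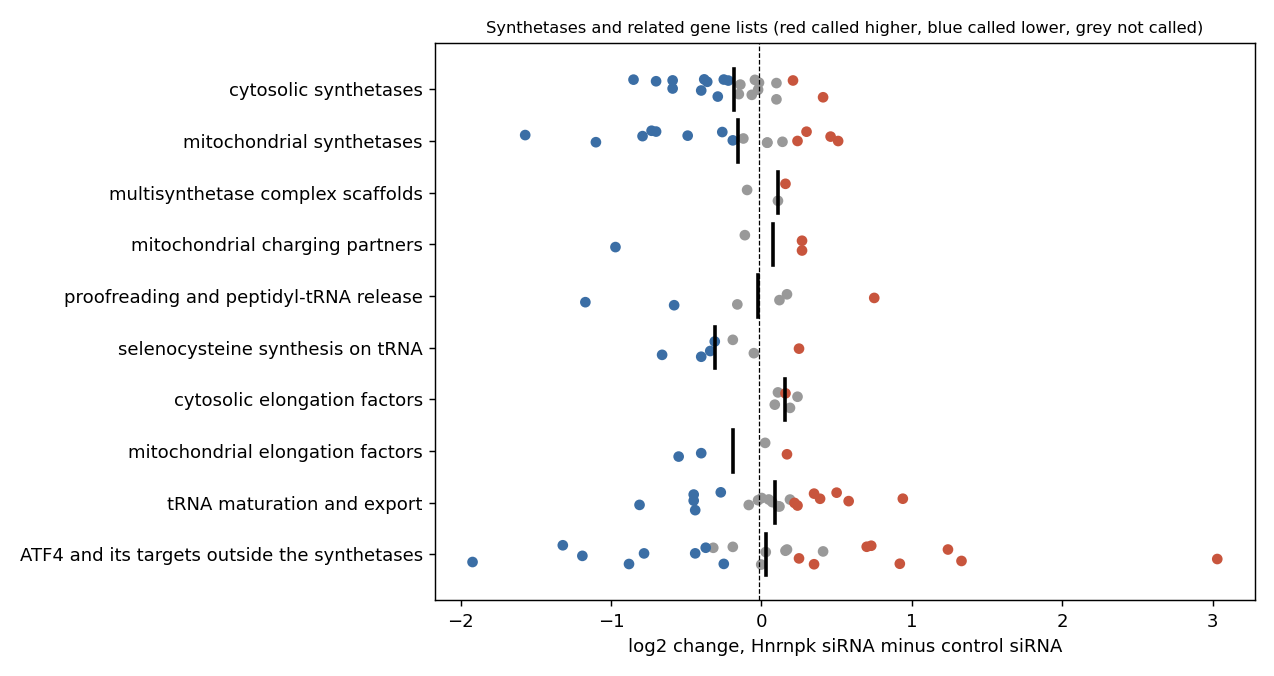
Log2 change of every tested gene in the synthetase groups and in 8 related lists, 1 point per gene (vertical scatter within a row is only for display), red for called higher, blue for called lower and grey for not called. Black bars are list medians and the dashed line is the median of all genes tested, -0.015. The cytosolic and mitochondrial synthetase medians lie at -0.19 and -0.15.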

How the data were processed

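The authors deposited 1 table of RPKM values per gene with a column for each of the 4 libraries. Per the submitters' processing notes, BWA, SAMtools and the mm9 build were used, with no version or role; the sources used here do not give the counting tool, annotation release or use of strand. The labels describe the RNA both as rRNA depleted and as poly(A) selected. RPKM are not counts, read counts were not recovered, and absolute depth is unknown. Values were analysed as log2(RPKM + 0.5) for 12486 of 22138 genes (mean over libraries 0.5 RPKM or more), with limma 3.58.1 in R 4.3.3 (mean-variance trend, two-sided, 7.47 prior degrees of freedom, Benjamini-Hochberg over all genes tested, called under 0.05). The fit was also run on simulated data with few changed genes and noise unrelated to level. That run does not cover changes as common as those found here. Positions, transcripts and GC content came by Ensembl identifier from GENCODE M21 on GRCm38, which is not the authors' build. Shared sequence was found with BLAST 2.17.0 (at least 95% identity over 100 bases).

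The members and lists were chosen with earlier results of these data known. Full values were given to Hnrnpk, to the 6 cytosolic and 6 mitochondrial members with the largest called changes without overlap, and to Atf4, Asns, Ddit3 and Trib3. Up to 3 called genes of each other list were named. Other members, neighbours, cell type markers and the ATF4 targets Ddit4 and Atf3 are named outside this rule. Alternatives changed the added value, the filter, the scaling, the variance trend, GC trends, the replicate block and each library.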

Additional observations from a re-analysis of the deposited data

How the results depend on the processing

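Over the 13 alternatives, 21 of the 36 synthetase genes kept their direction and their side of the threshold in each, 14 of them called lower, 4 called higher and 3 not called. Quantile normalization left 1 cytosolic gene called higher in place of 2 and moved the cytosolic median to -0.28 and the difference between the cytosolic and mitochondrial medians from -0.032 to -0.14; removing GC trends moved the mitochondrial median to -0.20 and turned the sign of that difference, to 0.014. Without 1 library at a time, the cytosolic genes called higher ranged from 1 to 2, the mitochondrial median from -0.19 to -0.12, and the difference between the medians from -0.063 (without control replicate 1) to -0.0015 (without control replicate 2), with -0.059 and -0.0023 without Hnrnpk siRNA replicates 1 and 2, so no direction is read from it. Signs turned for genes near no change that were not called: with GC trends removed Mars was at 0.033 and Mars2 at -0.011, under quantile normalization Rars was at -0.0024, and without 1 library at a time Hars ran from -0.11 to 0.025, Mars from -0.067 to 0.035, Nars from -0.14 to 0.098 and Fars2 from -0.0021 to 0.082. The cause was not tested. Replicate numbers are shared only as numbers (correlation of deviations 0.0267 between same-numbered libraries over 12486 genes): with the replicate block 4162 genes were called higher and 4460 lower, and Tars (-0.15, adjusted p = 0.0439) and Atf4 (0.41, adjusted p = 1.89e-04) were called. Without a library 1 arm has a single sample, assumed to vary like the other arm. The standard error was largest for Wars2 (0.0869), the lowest-expressed member.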
